A study of Mus musculus with 6 samples.

Results

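The SLAM family and its adaptors were followed here through 9 genes, Slamf1, Slamf6, Slamf7, Ly9, Cd48, Cd84, Sh2d1a, Sh2d2a and Fyn, taken by symbol from the 27998 genes of the deposited matrices, in which all 9 were present. The cells were invariant natural killer T (iNKT) cells of wild-type C57BL/6 mice aged 5 weeks, a T cell type whose invariant receptor sees lipids on CD1d. They were depleted of CD8+ and B220+ cells, sorted on TCR-b and a CD1d tetramer, and run on 10x Genomics 3' chemistry (v2), with 2 libraries each from liver, spleen and lymph node, 6 in all. The study's methods describe the 2 libraries of an organ as biological repeats, without saying whether a library pooled animals, and the p-values below rest on the spread between these libraries. In the edgeR fits that spread is estimated in part from all genes tested, not from the libraries of each gene alone. Unique molecular identifiers (UMIs, 1 per captured transcript) were summed per library and divided by the UMIs outside ribosomal protein and haemoglobin genes, on the usual CPM scale.

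SLAM receptors are surface proteins of the immunoglobulin superfamily that mostly bind their own kind on a neighbouring cell. Their cytoplasmic tails recruit the small adaptor SAP, encoded by Sh2d1a, which in turn brings in the kinase Fyn. In the thymus, iNKT cells are selected on other CD1d-bearing thymocytes, and signals through SLAM receptors, SAP and Fyn are known to be required for that step. Slamf7 belongs to the same family but is best known on NK cells, plasma cells and cytotoxic T cells, where its partner is the related adaptor EAT-2 rather than SAP.

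The 6 receptor genes lie together on chromosome 1 within 364.55 kb (GRCm38, GENCODE vM21 annotation). Ly9 covers positions 171588624 to 171607410 on the minus strand, inside the span of Cd244 on the plus strand, and whether reads were counted by strand is not given in the sources used here. Slamf7 follows at 171632403 to 171653035 (minus strand), then Cd48 at 171682009 to 171705258, Slamf1 at 171767127 to 171801184, Cd84 at 171839697 to 171890718 and Slamf6 at 171917515 to 171953170, all 4 on the plus strand. Slamf7 and Slamf6, the receptors contrasted in single cells below, are separated by 264.48 kb. The adaptor and kinase genes lie elsewhere, Sh2d1a on chromosome X (42502453 to 42529330), Sh2d2a on chromosome 3 (87846755 to 87855722) and Fyn on chromosome 10 (39368855 to 39565381).

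The promoters of the contrasted receptors Slamf7 and Slamf6 are shown to set their upstream sequences side by side. Each run is 240 bases, from position -250 to -11 relative to the RefSeq start (GRCm38.p6), at chr1:171649010-171649249 on the minus strand for Slamf7 and chr1:171917212-171917451 on the plus strand for Slamf6. The Slamf7 window lies inside the gene's GENCODE span, which reaches farther upstream. Capitals mark matches to any of 5 short motifs, searched on both strands: a T-box core (GTGTGA), AP-1 (TGANTCA), TCF/LEF (CTTTGA), RUNX (TGTGGT) and ETS (GGAAGT).
Slamf7: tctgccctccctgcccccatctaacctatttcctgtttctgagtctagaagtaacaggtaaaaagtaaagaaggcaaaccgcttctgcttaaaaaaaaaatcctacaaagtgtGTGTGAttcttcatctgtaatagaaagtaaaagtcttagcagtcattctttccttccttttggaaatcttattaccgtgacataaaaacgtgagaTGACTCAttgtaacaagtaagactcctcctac
Slamf6: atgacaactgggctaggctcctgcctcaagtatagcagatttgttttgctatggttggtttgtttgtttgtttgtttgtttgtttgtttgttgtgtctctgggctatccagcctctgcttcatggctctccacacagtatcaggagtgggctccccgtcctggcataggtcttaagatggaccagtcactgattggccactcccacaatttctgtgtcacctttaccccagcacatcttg
The Slamf7 window held 1 T-box core and 1 AP-1 match, and the Slamf6 window held none of the 5 motifs. Of all 32851 promoters in the table, 11.9% held the T-box core, 6.58% AP-1, 13.5% TCF/LEF, 13.6% RUNX and 18.7% ETS letters in windows of the same length. RefSeq promoters were given for 6 of the 9 genes, and the T-box core was also present in those of Slamf1, Cd48 and Fyn. Cd48 also held TCF/LEF and RUNX letters, Fyn TCF/LEF letters, and Cd84 AP-1 and RUNX letters, and the ETS letters were in none of the 6. A match describes letters only.

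After the filter on cells (300 to 4000 genes and at most 15% mitochondrial UMIs), 16532 of 16587 barcodes remained, 2638 to 2861 per library. Libraries held 4768016 to 11086603 UMIs, and the median cell had 2357 and 1932 UMIs outside ribosomal and haemoglobin genes in the liver libraries but 1126.5 to 1254.5 in those of spleen and lymph node. Genes of T cells were abundant (Cd3e at 626 to 1164 CPM, Zbtb16, which encodes the iNKT factor PLZF, at 71.9 to 100 CPM), while the summed B and plasma cell markers reached 16.7 CPM, the CD8 markers 7.03 CPM and the myeloid markers 27.5 to 146 CPM. The myeloid sum was mostly Fcer1g in liver and spleen (38.5 to 93.5 CPM) and mostly Lyz2 in the second lymph node library (108 CPM). Lymph node stood apart from the other organs in several measured ways that move with every comparison against it. Its libraries had no Xist UMI and 1363 and 1581 UMIs of Y-linked genes, where liver and spleen libraries had 5425 to 10553 Xist UMIs and no Y-linked UMI, so organ and sex cannot be told apart there. Its early response genes (Fos, Jun, Nr4a1 and others) summed to 6945 and 7509 CPM against 903 to 1516 CPM in the other libraries, and its panel of 11 iNKT1 genes (Tbx21, Il2rb, Nkg7, Xcl1, Ccl5 and NK receptors) summed to 2156 and 2170 CPM against 8419 to 9914 CPM. Its iNKT17 panel summed to 1369 and 1465 CPM against 125 to 309 CPM, and its further NK receptor genes to 272 and 275 CPM against 764 to 1010 CPM. By smaller margins, the iNKT2, naive, iNKT identity, and hepatocyte, endothelial and erythroid lists (the last at 52.4 and 57.1 CPM against 28.8 to 44.1) were highest and the cytotoxic list lowest in both lymph node libraries. The hepatocyte, endothelial and erythroid sum was mostly 1 gene, Pecam1, at 50.5 and 53.1 CPM in lymph node and 24.6 to 42.2 CPM elsewhere. Liver stood apart as well, in its deeper cells and in its naive list (1306 and 1156 CPM against 1892 to 2291 CPM elsewhere). Its panel for recent thymic emigrants summed to 181 and 187 CPM against 250 to 313 CPM. The ribosomal share of its UMIs was 34.5% and 32.3% against 23.8% to 28.9%. The part of all these in the results below was not tested. In sums over cells, fewer cells of a type and less RNA per cell cannot be told apart.

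Slamf6, a self-binding receptor of the SAP pathway, was highest in spleen, lower in liver and lowest in lymph node, and each step exceeded the spread between libraries. The spleen libraries held 139 and 134 CPM, the liver libraries 110 and 94.6 CPM and the lymph node libraries 44.5 and 42.2 CPM. No value of one organ fell within the range of another. Spleen exceeded lymph node 3.20-fold (log2 fold change 1.68 ± 0.13 SE, edgeR adjusted p = 6.62e-12) and liver exceeded lymph node 2.28-fold (1.19 ± 0.13, edgeR adjusted p = 6.73e-09). The liver level fell by 0.49 on the log2 scale relative to spleen (SE 0.12, edgeR adjusted p = 0.00237).

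Slamf7, the family member known from NK cells, had the largest fold difference of the 9 genes between lymph node and either other organ. The liver libraries held 104 and 141 CPM, the spleen libraries 150 and 127 CPM and the lymph node libraries 31.3 and 27.3 CPM. The liver and spleen ranges overlapped, and both lay above the lymph node values. The log2 fold change over lymph node was 2.01 ± 0.16 (SE) for liver (4.04-fold, edgeR adjusted p = 3.50e-10) and 2.26 ± 0.17 for spleen (4.79-fold, edgeR adjusted p = 1.10e-10). Liver and spleen differed by -0.25 (95% interval -0.53 to 0.04, edgeR adjusted p = 0.201), but without the second liver library the difference was -0.51 and passed the test (edgeR adjusted p = 0.0126).

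Lymph node was also lowest in the share of cells in which either gene was seen, once every cell was thinned to 700 UMIs (781 shallower cells left out). Slamf6 was detected in 7.46% and 5.72% of liver cells, 7.84% and 8.30% of spleen cells and 3.00% and 3.12% of lymph node cells. Slamf7 was detected in 6.57% and 10.0% of liver cells, 10.7% and 10.2% of spleen cells and 2.43% and 2.37% of lymph node cells. Without thinning the shares were higher, at 4.67% to 20.6% for Slamf6 and 3.13% to 23.8% for Slamf7, with liver, the most deeply sequenced organ, gaining most. No cell type known to lack both genes was at hand for a background of free RNA. The lowest shares in a large set were those of the 1163 lymph node cells with iNKT17 genes described below (median 1451 and 1295.5 UMIs), of which 1.38% had a Slamf6 UMI and 0.688% a Slamf7 UMI without thinning. A cell without a UMI is a cell in which the gene was not seen at this depth.

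Slamf1, the founding receptor of the family, was higher in liver. The liver libraries held 34.9 and 30.3 CPM, those of spleen 22.0 and 16.4 CPM and those of lymph node 18.3 and 17.6 CPM, with no overlap between liver and the other organs. The liver log2 fold change was 0.81 ± 0.19 (SE) over lymph node (edgeR adjusted p = 9.08e-04) and 0.68 ± 0.19 over spleen (edgeR adjusted p = 0.00661). The difference from spleen did not pass the test in DESeq2 (adjusted p = 0.0848), without the first liver library (edgeR adjusted p = 0.0734) or without the second spleen library (edgeR adjusted p = 0.123). Spleen and lymph node differed by 0.12 (95% interval -0.31 to 0.55).

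Ly9, also called SLAMF3, shared the low lymph node level of Slamf6 and Slamf7 at a smaller scale. It measured 140 CPM in both liver libraries, 148 and 143 CPM in those of spleen and 95.9 and 86.8 CPM in those of lymph node. The lymph node values lay below all 4 others. The log2 fold change over lymph node was 0.56 ± 0.12 (SE) for liver (edgeR adjusted p = 2.95e-04) and 0.69 ± 0.12 for spleen (edgeR adjusted p = 5.51e-05), and liver and spleen differed by -0.13 (95% interval -0.36 to 0.10).

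The remaining 2 surface molecules passed the test in no pair of organs with all 6 libraries and no replicate block. Cd84, another self-binding receptor, measured 248 and 221 CPM in the liver libraries, 207 and 211 CPM in spleen ones and 200 and 197 CPM in lymph node ones, and its largest log2 difference was 0.19 between liver and lymph node (95% interval -0.04 to 0.42). Cd48, the membrane-anchored ligand of Cd2 and Cd244, measured 357 and 494 CPM in the liver libraries, 404 and 491 CPM in spleen ones and 324 and 404 CPM in lymph node ones. Its libraries spread by 57.0 to 96.8 CPM (SD, n = 2) within an organ, and the organs overlapped. The widest log2 difference of Cd48, spleen over lymph node, was 0.32 (95% interval -0.04 to 0.69). With 1 liver library alone it did pass, being 0.42 higher in liver than in lymph node without the first (edgeR adjusted p = 0.0322) and -0.42 against spleen without the second (edgeR adjusted p = 0.0437).

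The adaptors and the kinase followed orders of their own. Sh2d1a, which encodes SAP, was highest in spleen at 444 and 398 CPM, against 303 and 306 CPM in liver and 324 and 326 CPM in lymph node. The spleen values lay above all others, by a log2 difference of 0.54 over liver (SE 0.11, edgeR adjusted p = 5.67e-04) and 0.39 over lymph node (SE 0.11, edgeR adjusted p = 0.0124). The second of these did not pass without the first spleen library (edgeR adjusted p = 0.126) or without either lymph node library (edgeR adjusted p = 0.0826 and 0.116). Sh2d1a is X-linked, and the lymph node libraries were those without Xist.

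Fyn, the kinase that SAP recruits, ran the other way between liver and spleen. It measured 156 CPM in both liver libraries, 95.4 and 83.6 CPM in those of spleen and 119 and 102 CPM in those of lymph node, so that liver stood above every other library. The log2 fold change of liver was 0.73 ± 0.12 (SE) over spleen (edgeR adjusted p = 4.28e-05) and 0.44 ± 0.12 over lymph node (edgeR adjusted p = 0.00361), the second not passing without the second lymph node library (edgeR adjusted p = 0.123). Sh2d2a, which encodes the T cell adaptor TSAd and binds the kinase Lck, was also highest in liver at 191 and 171 CPM, against 134 and 124 CPM in spleen and 117 and 124 CPM in lymph node. Its liver log2 fold change was 0.42 ± 0.11 over spleen (edgeR adjusted p = 0.00736) and 0.54 ± 0.12 over lymph node (edgeR adjusted p = 3.80e-04), and the difference from spleen did not pass without the first liver library (edgeR adjusted p = 0.0662) or the second spleen library (edgeR adjusted p = 0.0812).

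**Figure D1:**
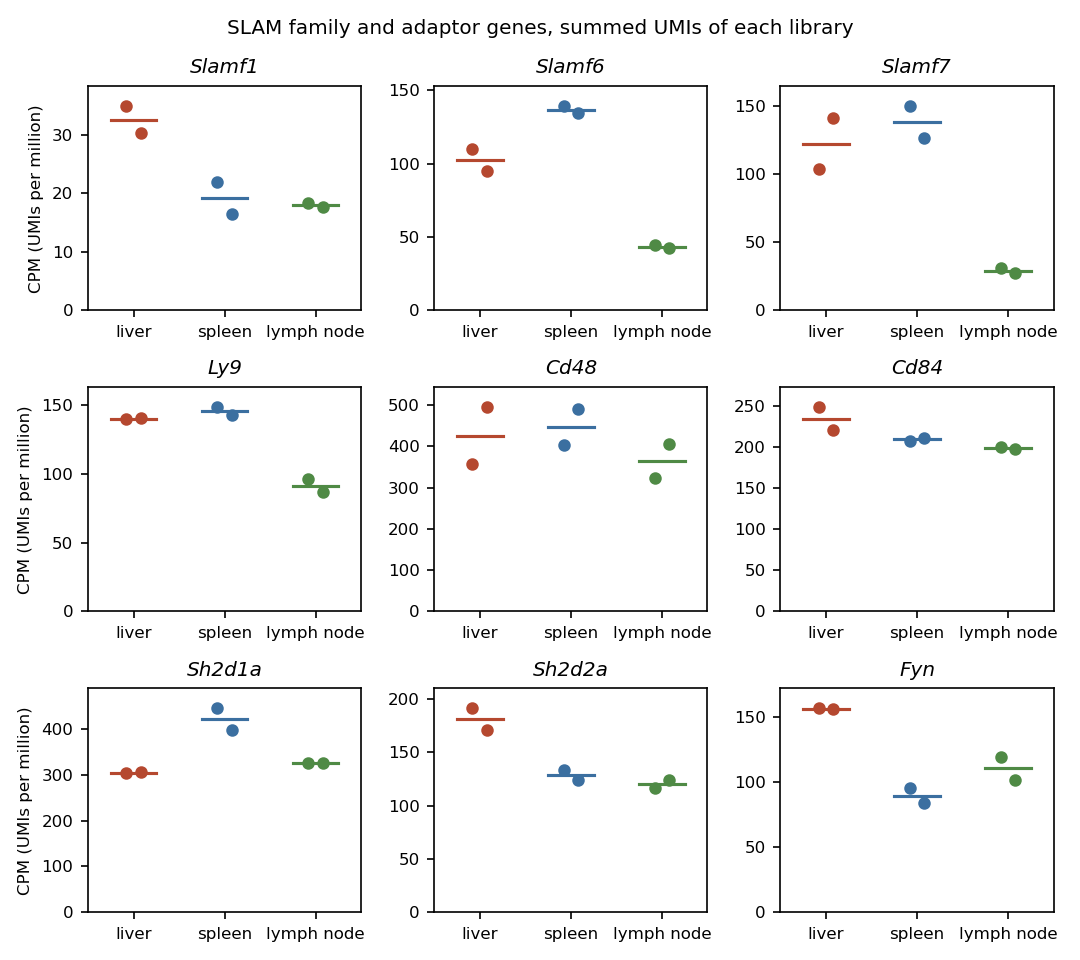
Level of each of the 9 genes in CPM (linear axis from 0) in the 2 libraries of liver, spleen and lymph node, with the mean as a bar. Slamf6 and Slamf7 are lowest in both lymph node libraries, Sh2d1a is highest in both spleen libraries, and Fyn, Sh2d2a and Slamf1 are highest in both liver libraries.

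Of the 9 genes, 6 were called higher in liver than in lymph node and none was called lower, where 18.0% of all 10178 genes tested were higher in liver and 37.6% differed in either direction. In spleen 4 of 9 were called higher than in lymph node and none lower, against a background of 7.98% higher and 18.3% in either direction. Between liver and spleen 5 of 9 were called, 3 higher and 2 lower in liver, against 25.7% of all genes. The median log2 fold change of the 9 was 0.54, 0.32 and -0.13 in these comparisons, where the median over all genes tested was 0.01, 0.00 and 0.02. The 3 comparisons share libraries and are not independent.

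Since iNKT1 cells made up unequal shares of the organs, the members were also compared among cells with iNKT1 genes alone. A gate on UMIs thinned to 700 per cell (at least 3 of the iNKT1 panel, 0 of an iNKT17 panel and at most 1 of a panel for recent thymic emigrants, RTE) took 73.0% and 68.9% of liver cells, 65.2% and 63.0% of spleen cells and 16.9% and 14.4% of lymph node cells. None of the 9 genes was used by the gate, though 2452 of 15751 cells (15.6%) lay at its edge with 2 or 3 iNKT1 panel UMIs. Slamf7 is still not independent of it. The panel genes Nkg7, Ccl5 and Xcl1 were among the 5 genes most like Slamf7 across single cells (correlations 0.14, 0.12 and 0.09). Taking or leaving out cells by that panel, here and in the later gates, therefore selects in part on Slamf7. The panel sum was still lower in gated lymph node cells (8463 and 9153 CPM) than in gated liver and spleen cells (10960 to 13358 CPM).

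Among gated cells Slamf6 remained low in lymph node. Gated liver cells held 95.5 and 87.5 CPM, gated spleen cells 97.7 and 101 CPM and gated lymph node cells 22.7 and 30.5 CPM, the last from 11 and 13 UMIs. The log2 fold change over lymph node was 1.68 ± 0.26 (SE) for liver (edgeR adjusted p = 7.06e-07) and 1.88 ± 0.27 for spleen (edgeR adjusted p = 6.62e-08). Liver and spleen, which differed over all cells, differed here by -0.20 (95% interval -0.48 to 0.07, edgeR adjusted p = 0.307).

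Slamf7 behaved otherwise, its lymph node values coming up to those of the first liver library. Gated liver cells held 116 and 161 CPM, gated spleen cells 208 and 181 CPM and gated lymph node cells 120 and 106 CPM. The liver and lymph node ranges overlapped (log2 fold change 0.18, 95% interval -0.20 to 0.55, edgeR adjusted p = 0.595), where over all cells the value was 2.01; the change between the 2 fits was not tested. Spleen exceeded liver by 0.58 (SE 0.14, edgeR adjusted p = 0.00128) and lymph node by 0.75 (SE 0.19, edgeR adjusted p = 0.00573). The first of these was lost without the first liver library (edgeR adjusted p = 0.139) and the second without either lymph node library (edgeR adjusted p = 0.0617 and 0.160).

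Of the other members, 2 differed between liver and spleen inside the gate. Sh2d1a measured 290 and 302 CPM in liver against 448 and 422 CPM in spleen, so that liver fell by 0.64 on the log2 scale (SE 0.12, edgeR adjusted p = 6.49e-05). Fyn measured 164 and 168 CPM in liver against 109 and 104 CPM in spleen, a log2 fold change of 0.55 ± 0.14 (SE, edgeR adjusted p = 0.00157). With library totals made equal, the value stayed at 0.55 but the call was lost (edgeR adjusted p = 0.121). The organs did not overlap in either gene. Ly9, which had been lower in lymph node over all cells, measured 134 and 124 CPM there against 146 to 162 CPM in the other gated libraries and passed in no pair. Others passed under alternatives. Without the second liver library Cd48 was called lower in liver than in spleen (-0.56, edgeR adjusted p = 0.00192, against -0.24 and 0.230 with it) and than in lymph node (-0.42, edgeR adjusted p = 0.0494). Sh2d2a, at 0.27 for liver against spleen (edgeR adjusted p = 0.115), was called without TMM factors, which scale libraries to a common composition (0.36, edgeR adjusted p = 0.0299), and with the gate on unthinned UMIs (0.38, 0.0318), and Cd84 was called for liver against lymph node without TMM (0.49, edgeR adjusted p = 0.0191). In all, 3 of 9 members differed between gated liver and spleen cells, against 21.8% of the 9200 genes tested. Lymph node differed from liver in 1 member (background 14.2%) and from spleen in 2 (4.76%).

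**Figure D2:**
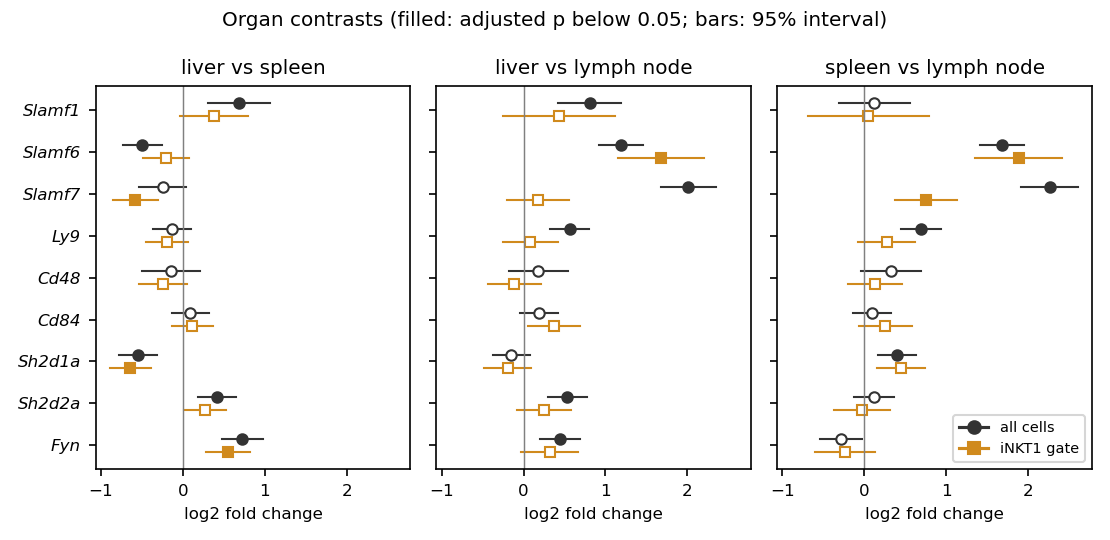
Log2 fold change (horizontal axis) of each gene between pairs of organs over all cells (circles) and over iNKT1 gate cells (squares), with 95% intervals and filled markers for an edgeR adjusted p below 0.05. Slamf6 stays above lymph node in both sets of cells, while Slamf7 in liver over lymph node goes from 2.01 over all cells to 0.18 in the gate.

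Outside the iNKT1 gate, few Slamf7 UMIs were found in cells with iNKT17 genes. The iNKT17 gate (at least 2 thinned UMIs of a panel with Il23r and Ccr6, and at most 1 of the iNKT1 panel) held 541 and 622 lymph node cells but only 3 to 34 cells in each other library, and the first liver library, with 3, was left out of the fit. Its lymph node cells held 7 and 1 Slamf7 UMIs, 8.46 and 1.18 CPM, where iNKT1-gated cells of the same libraries held 58 and 45 UMIs. The 5 fitted iNKT17 sums held 9 Slamf7 UMIs in all, so that Slamf7 met the filter on low counts through the iNKT1 sums, where it is high.

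Slamf1, Slamf6 and Fyn likewise met that filter in all iNKT1 sums but not in all iNKT17 sums. Slamf6 met it in 2 of the 5 iNKT17 sums, the 5 together holding 24 of its UMIs, and no fold is given for it. Of the 5 members that met it in every sum of both gates, 3 were lower in the iNKT17 gate (Ly9, Cd48 and Sh2d1a) and none was higher, where 8.69% of the 2945 genes that met it were lower and 15.7% differed in either direction (8.11% and 13.5% of all 6428 genes tested). Ly9 measured 56.8 and 51.9 CPM in the iNKT17 gate of the lymph node libraries and 134 and 124 CPM in their iNKT1 gate, with a log2 fold change of -1.23 ± 0.21 (SE, edgeR adjusted p = 1.71e-07). Cd48 and Sh2d1a fell by 0.46 and 0.46 on the log2 scale (edgeR adjusted p = 0.00661 and 0.0110), and each lost its call in 3 of 8 alternatives. These included, for Cd48, leaving out the first spleen (edgeR adjusted p = 0.0761) or the first lymph node library (0.155), and for Sh2d1a leaving out the first lymph node library (0.313). Cd84 did not pass (0.22, 95% interval -0.07 to 0.52), its lymph node iNKT17 level being 244 and 253 CPM, but with the gate on unthinned UMIs it was higher (0.45, edgeR adjusted p = 0.00800). Lymph node cells supplied most of this gate, so the contrast says little of iNKT17 cells in liver or spleen.

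Cells with RTE genes (at least 2 thinned UMIs of a panel with Ccr7, S1pr1, Lef1 and Dapl1, at most 1 of the iNKT1 panel and 0 of the iNKT17 panel) showed Slamf6 and no Slamf7. The gate held 5 to 46 cells per library, 140 in all, and Slamf6 was counted 43 times in them, 176 CPM (exact 95% Poisson interval 127 to 236, counting error only). Slamf7 was counted 0 times. In the 5 libraries with 10 or more such cells, 0 of 135 cells had a Slamf7 UMI, which allows a share of cells with a UMI, not of cells expressing the gene, of up to 2.22%. Slamf7 was at least 12.8-fold lower than in their iNKT1 gate, against a floor of 3 counts over the group. It was at least 11.4-fold lower with the iNKT1 gate levels weighted by the RTE UMIs of each library. That weighting was chosen after seeing the data. Both bounds pool the 5 libraries, and those for single organs are lower. The floor was 29.3 CPM in lymph node against 113 CPM in the iNKT1 gate, and 34.1 against 196 CPM in spleen. In the second liver library it was 90.8 against 161 CPM.

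By library, Slamf6 in the RTE gate ran from 52.0 CPM in the first lymph node library, from 3 UMIs, to 468 CPM in the first liver library, where 10 UMIs came from 2 of 5 cells and which was not in the fit. Sh2d2a ran from 37.1 to 121 CPM on 1 to 4 UMIs per library. Slamf6 met the filter on low counts in all RTE sums but in only 3 of 5 iNKT1 sums, and Sh2d2a and Slamf7 met it in all iNKT1 sums but not in all RTE sums, so no fold is given for Slamf6 and Sh2d2a. None of the 4 members that met it in every sum of both gates (Ly9, Cd48, Cd84 and Sh2d1a) was called, where 7.23% of the 1797 genes that met it were (5.83% of all 3638 tested). Ly9 was at -0.90 (edgeR adjusted p = 0.0943) and Cd48 at -0.45 (0.110), and both were called with no filter (-1.16, 0.0268 and -0.72, 0.00482), Cd48 also with the gate on unthinned UMIs (-0.68, 0.00618).

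**Figure D3:**
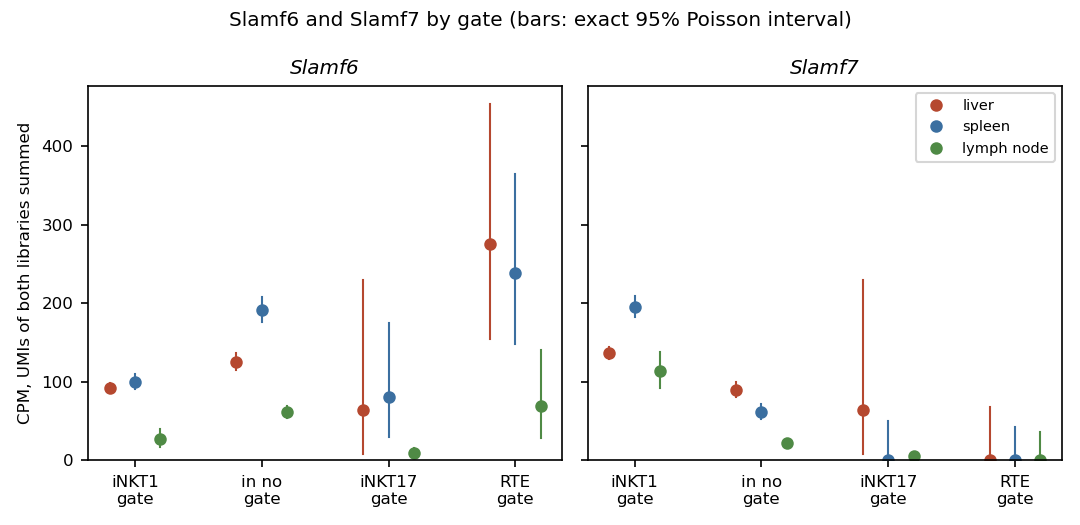
Slamf6 and Slamf7 in CPM (linear axis from 0) in cells of the iNKT1, iNKT17 and RTE gates and in cells of no gate, with the UMIs of both libraries of an organ summed and exact 95% Poisson intervals for counting error. Slamf7 is highest in the iNKT1 gate and at 0 in the RTE gate of all 3 organs, while Slamf6 in lymph node is at 60.8 CPM in cells of no gate and at 26.4 CPM in the iNKT1 gate.

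The gates divided the UMIs of these receptors unequally in lymph node. There 83.0% of Slamf6 UMIs came from cells of no gate and 7.55% from the iNKT1 gate, whereas 47.9% of Slamf7 UMIs came from the iNKT1 gate and 44.2% from cells of no gate. In liver 61.5% of Slamf6 UMIs and 77.2% of Slamf7 UMIs were in the iNKT1 gate, and in spleen 41.4% and 80.3%. Cells of no gate were 51.3% to 53.1% of lymph node cells and 26.7% to 31.6% elsewhere.

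Setting both receptors against each other within a library gives a ratio from which the library's depth cancels, and it is read here only across organs. The log2 ratio of Slamf7 to Slamf6 UMIs was -0.08 and 0.58 in the liver libraries, 0.11 and -0.09 in spleen ones and -0.51 and -0.63 in lymph node ones, so that both lymph node libraries were the lowest. The means were 0.25 ± 0.47, 0.01 ± 0.14 and -0.57 ± 0.08 (SD, n = 2 each; exact permutation test of F over 15 splits, p = 0.133, where the smallest possible is 0.0667, so that 0.05 was out of reach). Among iNKT1-gated cells the order turned around, with 0.28 and 0.88 in the liver libraries, 1.09 and 0.84 in spleen ones and 2.40 and 1.79 in lymph node ones. Both lymph node libraries were then the highest (p = 0.133 by the same exact test).

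Single cells with UMIs of both receptors were few. Without thinning, 1808 of 16532 cells had Slamf6 only, 2018 had Slamf7 only and 323 had both. Detection of both independently within each library would give 373 such cells, summed over libraries, and after thinning 61 were found where 77.2 would be. Independence over the cells of all libraries pooled would give 302 without thinning, below the 323 seen, and 67.2 after thinning, above the 61 seen. Within deciles of UMIs per cell, the log2 odds ratio of seeing both was -0.34 and -0.48 in the liver libraries, -0.74 and -0.32 in spleen ones and -0.23 and 0.46 in lymph node ones. It was below 0 in 5 of 6 libraries, with a mean of -0.27 ± 0.40 (SD, n = 6; exact two-sided sign-flip permutation test, p = 0.156), so an exclusion of one receptor by the other was not detectable at this depth. The second lymph node library, the exception, rested on 6 cells with both, and without it the mean was -0.42 (exact p = 0.0625, the smallest that 5 libraries allow). Without the first spleen library the mean was -0.18 (exact p = 0.312), and in iNKT1-gated cells -0.14 (exact p = 0.375). Thinning every cell to 700 UMIs left 3 of 6 libraries below 0 and a mean of -0.25.

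**Figure D4:**
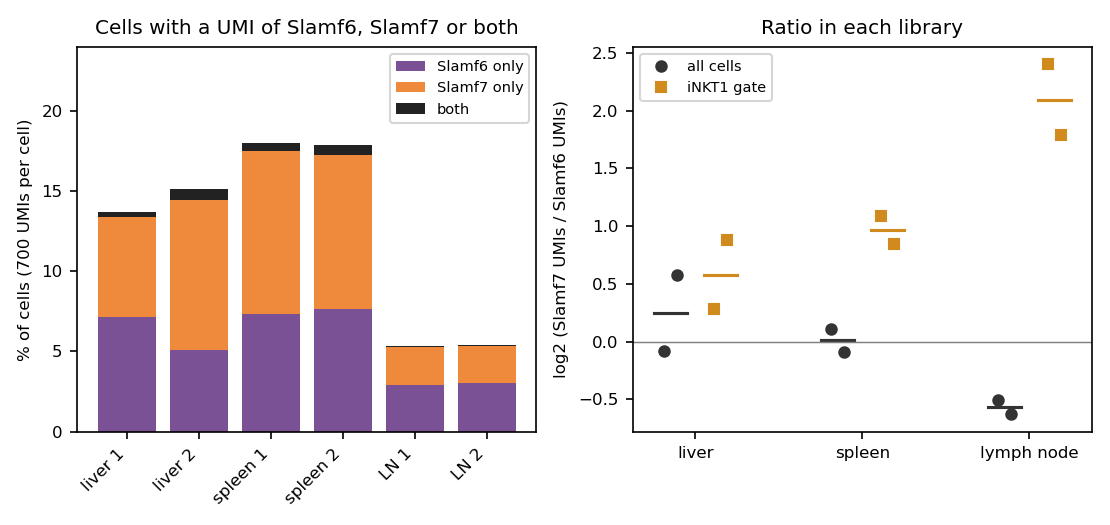
Left, share of cells (percent, every cell thinned to 700 UMIs) with a UMI of Slamf6 only, Slamf7 only or both in each library (LN, lymph node). Right, log2 ratio of Slamf7 to Slamf6 UMIs in each library with the organ mean as a bar, where lymph node is lowest over all cells (-0.57) and highest in the iNKT1 gate (2.10).

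Cells seen with Slamf7 alone and cells seen with Slamf6 alone were next compared for all other genes, the library being a block and both receptors left out of the counts. Of 6294 genes, 397 differed (6.31%), 197 higher in Slamf7-only and 200 higher in Slamf6-only cells. Of cells with 700 or more UMIs, 76.7% of the Slamf7-only and 46.6% of the Slamf6-only cells lay in the iNKT1 gate. By organ these shares were 76.7% against 63.3% in liver, 82.85% against 41.5% in spleen and 50.3% against 7.28% in lymph node. Slamf6-only cells were deeper, with a median of 1947 against 1674 UMIs. With iNKT1-gated cells alone, an alternative chosen after seeing the data, 90 genes differed, and with cells chosen on thinned UMIs 202.

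The genes reported were those called, with a mean of 20 CPM or more over the 12 sums (6 libraries, both classes of cells), in the same direction in 6 of 6 libraries and with the largest fold, 11 on the Slamf7 side and 12 on the Slamf6 side. Such a rule takes in genes that passed the filter on low counts, here 16.8 CPM, only in the cells where they are high. Exact folds are therefore given for the 4 genes of each side that met it in all 12 sums.

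On the Slamf7 side these were Xcl1, Rgs1, Ifng and Cxcr6. Xcl1, a chemokine that attracts dendritic cells, averaged 478 ± 38.9 CPM (SD, n = 6) in Slamf7-only cells and 156 ± 69.8 CPM in Slamf6-only cells (log2 fold change 1.48 ± 0.20 SE, edgeR adjusted p = 0.0107). The G protein regulator Rgs1 averaged 321 ± 51.9 against 165 ± 70.4 CPM, 2.14-fold higher (edgeR adjusted p = 0.0177). Ifng, the type 1 cytokine, averaged 175 ± 90.5 against 70.1 ± 35.3 CPM (1.00 ± 0.13, edgeR adjusted p = 5.00e-06). Cxcr6, known for holding iNKT cells in the liver, averaged 2324 against 1222 CPM (0.88 ± 0.16, edgeR adjusted p = 0.0373).

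The other 7 on this side were Klrc1, which encodes the NK receptor NKG2A, the NK receptor gene Klre1, the transcription factor gene Bhlhe40, and Fgl2, Ifitm10, Rnf130 and Plekhf1. Each met the filter in all Slamf7-only sums and in 2 to 5 of the 6 Slamf6-only sums. Klrc1 gave 1294 UMIs in Slamf7-only and 535 in Slamf6-only cells.

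On the Slamf6 side the 4 genes were Tcf7, Adk, Cd9 and Timp2. Tcf7, which encodes the factor TCF1, averaged 168 ± 52.6 CPM (SD, n = 6) in Slamf6-only and 67.3 ± 17.0 CPM in Slamf7-only cells, 2.44-fold higher (edgeR adjusted p = 6.81e-10). The adenosine kinase gene Adk was 2.27-fold higher (edgeR adjusted p = 2.48e-06), the tetraspanin gene Cd9 2.13-fold (1.60e-08) and the protease inhibitor gene Timp2 2.04-fold (1.56e-06).

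The other 8 on this side were scarce in Slamf7-only cells and met the filter in 1 to 4 of their 6 sums. Ccr7, the lymph node homing receptor, gave 22 UMIs in all Slamf7-only sums, 0 to 8 a library, and 181 in Slamf6-only sums. The skin homing receptor gene Ccr10 gave 25 against 194 UMIs, Il6ra, the interleukin-6 receptor, 19 against 128, and Id3, an inhibitor of E proteins, 67 against 318. The rest were Nrp1, the cyclin gene Ccnb1, 1700097N02Rik and Gm19705.

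**Figure D5:**
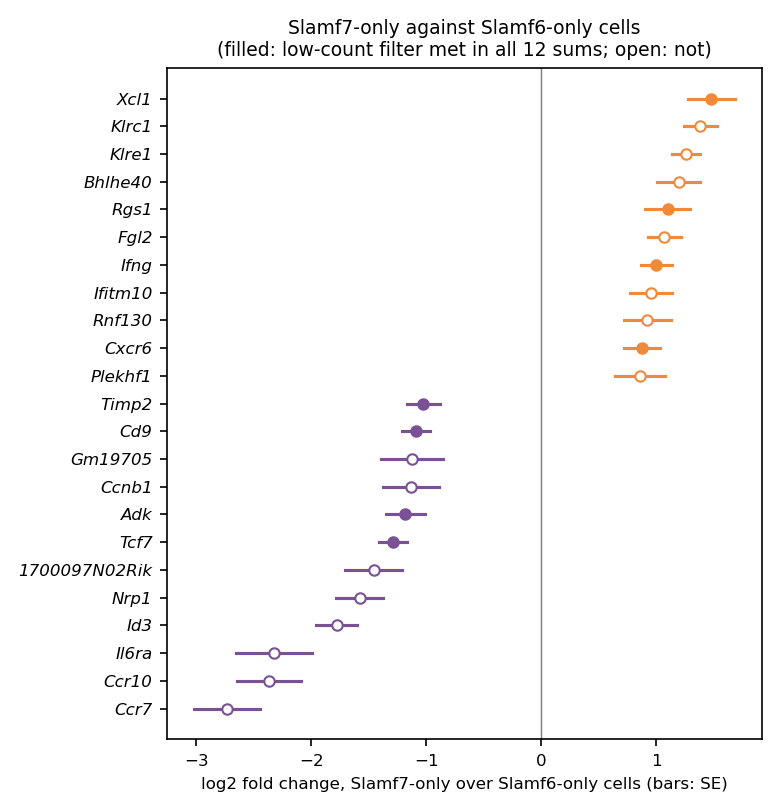
Log2 fold change (horizontal axis, bars are SE) of the 23 genes reported between cells with Slamf7 UMIs only and cells with Slamf6 UMIs only, 11 on the Slamf7 side and 12 on the Slamf6 side. Filled points are the genes that met the low-count filter in all 12 sums, of which Xcl1 lies farthest to the Slamf7 side and Tcf7 farthest to the Slamf6 side, and the values of open points rest on few UMIs in 1 or more sums.

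By gene group, read against the 3.13% of all 6294 genes called higher and the 3.18% called lower in Slamf7-only cells, 4 of 10 iNKT1 panel genes tested were higher in Slamf7-only cells and none lower (median log2 fold change 1.04, against 0.00 over all genes). Those called were Xcl1, Klre1, Il2rb and Tbx21, while Nkg7 (1.13), Ccl5 (1.38) and Klrk1 (1.21) did not pass (edgeR adjusted p = 0.0918, 0.0927 and 0.0565). Of 5 further NK receptor genes, 3 were higher (Klrc1, Klrc2 and Cd160). Of the 5 cytotoxic genes tested, 1 was higher, Ctsw, and Gzma had a value of 1.80 (edgeR adjusted p = 0.0870).

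On the Slamf6 side, all 3 RTE genes tested were higher (Ccr7, S1pr1 and Lef1), as were 5 of 8 iNKT2 genes tested (Icos, Pdcd1, Il6ra, Il17rb and Izumo1r), 3 of 7 naive and stem-like genes (Id3, Klf2 and Tcf7) and 5 of 7 proliferation genes, among them Mki67 and Top2a. The iNKT2 cytokine gene Il4 did not pass and had a value of 0.34 toward Slamf7-only cells (edgeR adjusted p = 0.0711). Junb and Dusp1, 2 of 7 early response genes tested, and Tmem176b, 1 of 4 iNKT17 genes tested, were higher in Slamf7-only cells. Of the genes called in these groups, Klre1, Klrc1, Ccr7, Pdcd1, Il6ra, Il17rb, Id3, Mki67, Ube2c, Ccnb2 and Tmem176b did not meet the low-count filter in all 12 sums. Of all 4142 genes that did, 3.38% were higher and 3.72% lower in Slamf7-only cells. Among these, 3 of 9 iNKT1 panel genes, 2 of 3 NK receptor genes, 1 of 3 cytotoxic genes and 2 of 5 early response genes were higher and none lower. Both RTE genes, 2 of 5 iNKT2 genes, 2 of 6 naive genes and 2 of 3 proliferation genes were lower and none higher, and no iNKT17 gene met the filter in all 12 sums. The part of the deeper counts of Slamf6-only cells in these differences was not tested beyond the thinned choice of cells.

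Among the members themselves, 3 of the 7 tested differed between these cells (background 6.31%), all 3 among the 6 that met the low-count filter in all 12 sums (background 7.10%). Cd48 was higher in Slamf7-only cells of 6 of 6 libraries (log2 fold change 0.31 ± 0.07 SE, edgeR adjusted p = 0.00132), from 498 against 436 CPM in the second lymph node library to 436 against 282 CPM in the first. Ly9 was higher in 6 of 6 libraries (0.33 ± 0.10, edgeR adjusted p = 0.0377), by least in the second liver library with 135 against 123 CPM. Sh2d1a was lower in 5 of 6 (-0.32 ± 0.08, edgeR adjusted p = 0.0135), with the second spleen library the exception at 434 against 411 CPM. Its log2 ratio was -0.58 and -0.43 in the liver libraries and -0.75 and -0.67 in the lymph node ones. In the spleen libraries it was only -0.07 and 0.08. This difference between organs was not tested.

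Of these calls, that of Ly9 was lost in 10 of 12 alternatives, that of Sh2d1a in 6 and that of Cd48 in 2. Ly9 lost it without any 1 of 5 libraries, all but the second liver library (edgeR adjusted p = 0.0535 to 0.170), and Sh2d1a without either liver library or the first lymph node library (0.0539 to 0.142). Cd48 was at 0.20 (edgeR adjusted p = 0.243) with cells chosen on thinned UMIs and at 0.19 (0.396) among iNKT1-gated cells.

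Of the wider SLAM pathway, 26 other genes were in the files, and 22 passed the filter on low counts and were tested between organs over all cells. Liver exceeded lymph node in 12 and fell below it in 2, liver exceeded spleen in 7 and fell below it in 1, and spleen exceeded lymph node in 3 and fell below it in 2. The share of all genes called in either direction was 37.6%, 25.7% and 18.3% in these pairs, and the 5 of 22 for spleen against lymph node lay near it. Among iNKT1-gated cells 21 of these genes were tested, with 1 called higher and 4 lower in liver than in lymph node (14.2% of all genes called) and 6 higher and 1 lower in liver than in spleen (21.8%). In spleen against lymph node 1 of 21 was called, lower, a share near the 4.76% of all genes. The change between the fits was not tested. The adaptor EAT-2 was not seen, since its genes Sh2d1b1 and Sh2d1b2 had 0 UMIs in all 6 libraries, as had the receptor gene Slamf9, and Slamf8 had 1 UMI. Cd244, the receptor for CD48, was scarce. Liver libraries gave 26 and 21 UMIs of it, spleen 9 and 3, and lymph node 2 and 4. The organ means were 3.55 ± 0.15 CPM (SD, n = 2) for liver, 1.58 ± 1.06 for spleen and 0.82 ± 0.40 for lymph node. Cd244 passed the filter on low counts only through the liver libraries, where it is high. Its call in liver against lymph node, included in the 12 above, rests on those counts. Cd244 spans Ly9 on the other strand.

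Cd2, the other CD48 receptor, averaged 276 ± 24.8 CPM in lymph node against 409 ± 9.09 in liver and 419 ± 73.0 in spleen (SD, n = 2), and was higher than lymph node in liver (0.52 ± 0.12 SE, edgeR adjusted p = 9.83e-04) and spleen (0.62 ± 0.12, edgeR adjusted p = 2.86e-04). Among iNKT1-gated cells Cd2 did not pass, at -0.16 for liver (edgeR adjusted p = 0.496) and -0.01 for spleen (0.992). Among proximal signalling genes, Plcg1, a phospholipase, was higher in liver at 55.0 ± 10.3 CPM against 27.7 ± 4.46 in spleen and 24.4 ± 3.26 in lymph node (log2 fold changes 0.92 and 1.12). The ubiquitin ligase gene Cblb was also higher in liver, by 0.80 over spleen and 0.98 over lymph node. Inpp5d, which encodes the phosphatase SHIP1 that acts downstream of SLAM receptors, was higher in liver by 0.54 over spleen and 0.51 over lymph node. Among iNKT1-gated cells Plcg1 was at 0.80 over spleen (edgeR adjusted p = 6.79e-04) and 0.78 over lymph node (0.0530), Cblb at 0.74 (0.00195) and 0.15 (0.771), and Inpp5d passed in neither pair (0.156 and 0.292).

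The adaptor gene Grb2 and the transcription factor gene Egr2 were the pathway genes higher in lymph node over all cells. Grb2 averaged 155 ± 8.85 CPM there against 93.7 ± 1.82 in liver and 62.1 ± 3.45 in spleen (SD, n = 2). Spleen differed from it by -1.29 on the log2 scale (edgeR adjusted p = 9.36e-10) and liver by -0.77 (edgeR adjusted p = 2.80e-06). Egr2, induced by antigen receptor signals, averaged 12.8 ± 2.10 CPM in lymph node against 3.54 ± 2.42 in liver and 3.77 ± 0.19 in spleen, and lymph node was also the organ with the high early response genes. Over all cells the other calls included Csk and Ptpn11 (higher in liver than in spleen, with Grb2), Rasa1 (lower), Lck, Malt1, Prkcq, Dok1 and Ptpn11 (higher in liver than in lymph node), and Lck and Dok2 (higher in spleen than in lymph node).

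Between gates, 9 of the 18 pathway genes tested met the filter on low counts in every iNKT17 and iNKT1 sum. Of these, 4 were lower in the iNKT17 gate, Cd2 (-1.26), Dok2 (-1.14), Lck (-0.71) and Ptpn6 (-0.64), and Zbtb16 was higher (0.89), where 8.69% of the genes that met it were lower and 15.7% differed in either direction. Cblb, Rasa1 and Vav1 met the filter in all iNKT1 sums but in only 4 of the 5 iNKT17 sums, and no fold is given for them. In the RTE gate 1 of 10 that met it in both was called, Dok2, which fell by 0.68, a share near the 7.23% of all genes that did. Between Slamf7-only and Slamf6-only cells, 4 of the 18 pathway genes tested were called and 14 were not, where 6.31% of all genes were called. Dok2 and Bcl10 were higher in the former (0.31 and 0.47) and Zbtb16 and Prkcq in the latter, with log2 fold changes of -0.74 and -0.40.

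Across single cells the genes with the pattern most like each receptor were described by Pearson correlation of log values, averaged over the 6 libraries, among 3524 genes with at least 0.05 UMIs per cell in every library. For Slamf7 they were Nkg7 (0.14), Ccl5 (0.12), AW112010 (0.10), Ms4a4b (0.10) and Xcl1 (0.09). For Slamf6 they were Smpdl3a (0.09), Tcf7 (0.08), Izumo1r (0.08), Ifi27l2a (0.08) and mt-Co3 (0.07). The correlation of Slamf6 with Slamf7 was -0.03 on average and between -0.07 and 0.00 in each library. All these values are weak, and the cells of a library share its depth and preparation.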

How the data were processed

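Per the labels and the study's methods, the authors aligned reads to mm10, counted UMIs with Cell Ranger 3.1.0 and deposited raw counts per gene and cell barcode for 6 libraries of sorted mouse iNKT cells; Seurat is also named. The annotation release and the use of strand in counting are not given in the sources used here. The labels give the molecule as nuclear RNA.

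Cells were kept with 300 to 4000 genes and at most 15% mitochondrial UMIs, and 183 of 27998 genes (ribosomal protein and haemoglobin) were left out of totals. Gates and thinned shares used cells thinned to 700 UMIs with a fixed seed, which 15751 cells reached, while sums used all UMIs of the chosen cells. A sum needed 10 cells, which removed the first liver library from the iNKT17 and RTE comparisons. UMIs were summed per library and fitted with edgeR 4.0.16 (R 4.3.3): filterByExpr, TMM factors, robust glmQLFit and glmQLFTest, with Benjamini-Hochberg adjustment over all genes tested and a call at an adjusted p under 0.05. Organ comparisons used all 6 libraries in 1 fit, and comparisons within libraries had the library as a block. Gate genes, or Slamf6 and Slamf7, were left out of the counts they had chosen. The edgeR fits were also run on simulated counts with full library totals and the same spread for all genes, which does not cover the small sums of gated cells. CPM printed in the text use the counted UMIs, without TMM factors. Exact tests used the 15 splits of 6 libraries (smallest p 0.0667) or sign flips over 6 libraries (smallest p 0.03125). No doublet caller was applied in the main results. Leaving out the 5% of cells with the highest Scrublet scores (scanpy 1.11.5) was an alternative. Other alternatives were DESeq2 1.42.0, no filter on low counts, no TMM, equal library totals, other gates and leaving out each library.

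Libraries shared 6 to 20 barcodes per pair, 0.214% to 0.753% of the smaller library. Intervals on single counts cover counting error only. All members were named, as were other pathway genes called in an organ comparison of all cells. Between Slamf7-only and Slamf6-only cells the rule took up to 12 genes a side, called, at 20 CPM or more, with 1 direction in 6 libraries and the largest fold; genes of the fixed lists were counted and the called ones named. A few genes that these rules and panels take in are not reported here, although the counts, gates and tests include them. The members, gates and lists were chosen with earlier results of these data known.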

Additional observations from a re-analysis of the deposited data

Results flagged for a closer look

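Cd84, which did not differ between Slamf7-only and Slamf6-only cells over all libraries (log2 fold change 0.03), lay below 0 in both liver libraries and above 0 in both lymph node libraries, by little in 2 of the 4. In liver the log2 ratio of Slamf7-only over Slamf6-only cells was -0.02 and -0.11 in the libraries, -0.06 on average. In lymph node it was 0.07 and 0.66, 0.36 on average, on 27 to 50 Cd84 UMIs per sum. The spleen libraries, at 0.21 and -0.22, lay on both sides of 0 and spread wider than liver. The difference between the organs was not tested.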

How the results depend on the processing

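Of 975 values for the members under alternatives, 874 kept direction and side of the threshold, 54 lost a call and 18 gained one. The other 29 changed sign, none of them called in either fit. With no filter, these log2 values were 0.011 for Sh2d2a in spleen against lymph node (iNKT1 gate), and -0.090 for Cd84 and -0.047 for Sh2d1a in RTE. In the iNKT1 gate Sh2d2a of the same pair was also 0.0053 without TMM, 0.25 with equal library totals and 0.074 with at least 5 panel UMIs, Cd84 was -0.018 in liver against spleen with equal totals, Slamf1 was -0.026 in spleen against lymph node with the unthinned gate, and Slamf7 was -0.016 in liver against lymph node with 5 UMIs. Between Slamf7-only and Slamf6-only cells, Cd84 was -0.095 and Fyn -0.077 in iNKT1 gate cells, and Cd84 was -0.0080 in liver and spleen libraries. Leaving out 1 library gave, over all cells, -0.42 to 0.099 (Cd48, liver against spleen), -0.10 to 0.42 (Cd48, liver against lymph node) and -0.081 to 0.30 (Slamf1, spleen against lymph node). In the gate it gave -0.56 to 0.017, -0.42 to 0.15 and -0.024 to 0.32 for Cd48 in the 3 pairs, -0.11 to 0.43 (Slamf7, liver against lymph node), and, for spleen against lymph node, -0.28 to 0.32 (Slamf1), -0.021 to 0.0056 (Sh2d2a) and -0.47 to 0.12 (Fyn). It gave -0.075 to 0.30 for Cd84 in iNKT17, -0.52 to 0.015 for Fyn in RTE and -0.020 to 0.082 for Cd84 in Slamf7-only cells. The log2 ratio of Slamf7 to Slamf6 reversed in iNKT1 gate cells, from 0.82 to -1.52 for liver minus lymph node and from 0.58 to -1.13 for spleen minus lymph node, and was -0.39 in place of 0.24 for liver minus spleen. Leaving out a library moved it from -0.10 to 0.57 (liver minus spleen) and from 0.48 to 1.15 (liver minus lymph node). The cause was not tested for these or for the counts below.

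Genes called in liver against spleen, liver against lymph node and spleen against lymph node were 2620, 3830 and 1865 over all cells and 2006, 1302 and 438 in the iNKT1 gate. DESeq2 called 1305, 2356 and 1015 over all cells, 647, 703 and 255 in the gate, 404 for iNKT17, 98 for RTE and 212 for Slamf7-only against Slamf6-only cells, where edgeR called 869, 212 and 397. Equal library totals gave 425, 760 and 281 in the gate, a gate of 5 iNKT1 UMIs gave 830 for liver against lymph node, and no filter gave 341 for RTE. For Slamf7-only cells, the choice on thinned UMIs gave 202 and iNKT1 gate cells alone 90. Leaving out 1 library gave 1368 to 2410, 2404 to 4034 and 1021 to 1919 over all cells, with the lowest values lacking the first liver or the second lymph node library. It gave 950 to 2067, 642 to 1323 and 223 to 483 in the gate, 363 to 943 for iNKT17, 127 to 169 for RTE and 276 to 409 for Slamf7-only cells.

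The share of calls that were higher moved from 49.6% to 62.1% (liver against spleen, all cells), 48.0% to 65.0% and 38.9% to 58.1% (liver against spleen and lymph node, gate) without TMM. With DESeq2 it was 37.2% for liver against spleen in the gate and 52.0% for RTE, where edgeR gave 39.2%, no filter 19.4% and leaving out the second lymph node library 26.8%.

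In the iNKT1 gate the Slamf7 calls were also lost in DESeq2 (adjusted p = 0.0598 for liver against spleen and 0.0619 for spleen against lymph node), the first also with equal library totals (edgeR adjusted p = 0.116) and the second with a gate of 5 UMIs (0.0921). The Fyn call there was lost with equal library totals (0.121). Sh2d1a in spleen against lymph node, at 0.0558, was called in 5 of 13 alternatives.

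Deviations from the organ mean correlated weakly between libraries of the same sample number, by 0.087, 0.084 and 0.069 over genes in the pairs of organs. Such an average over genes cannot exclude a shared effect of the sample number on single genes. Cd48 was higher in the second library of every organ. With the sample number as a replicate block, 3039, 4141 and 2114 genes were called over all cells and 2407, 1440 and 513 in the gate. These counts were higher than without the block in every pair. Among members the block added Cd48 in spleen against lymph node (0.32, edgeR adjusted p = 0.0203) and Sh2d1a in the same pair within the gate (0.45, edgeR adjusted p = 0.0239), and changed no other call. With 2 libraries an organ and 11 to 13 Slamf6 UMIs in gated lymph node cells, small differences there were not detectable.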
